A study of Mus musculus with 6 samples.

Results

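Transcript levels of the MHC class II genes and of Ciita were examined in primary hepatic stellate cell cultures of S100a16+/- and WT mice. The set holds 10 of the 55401 genes in the expression table, taken by symbol: Ciita, Cd74, H2-Aa, H2-Ab1, H2-Eb1, H2-DMa, H2-DMb1, H2-DMb2, H2-Oa and H2-Ob. They were chosen because of their difference between S100a16+/- and WT in these same 6 libraries, so their fold changes are a description. No p-value is given for them.

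Both groups carried the C57BL/6J background and differed in genotype. The S100a16+/- mice were heterozygous at S100a16, which encodes an EF-hand calcium-binding protein, and the WT mice were wild type. Liver stellate cells of either genotype were kept for 7 days in serum-containing medium, and 3 poly(A)-selected libraries were sequenced per genotype. The labels give neither the age of the mice nor the construction of the allele, and they do not say whether each library came from a separate animal, so any p-value measures the spread between these samples, which may be technical.

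MHC class II molecules are pairs of an alpha and a beta chain that show peptides from the endosome to CD4 T cells. Newly made pairs are held by the invariant chain Cd74, whose last fragment is taken out of the groove by the DM chaperone, and DM is in turn held back by DO. The coactivator Ciita does not bind DNA itself. It docks on factors already sitting on the X and Y boxes of the class II, Cd74 and DM promoters, and interferon-gamma is the best known signal that switches it on. Macrophages, dendritic cells and B cells are the usual producers, and in liver, sinusoidal endothelium and activated stellate cells have also been described to carry class II.

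Library totals ran between 61979103 and 70896338 counts in S100a16+/- and between 65880770 and 76291481 in WT. S100a16 itself had 18.0, 17.7 and 30.0 FPKM (fragments scaled to gene length and library total) in S100a16+/- replicates 1, 2 and 3, against 57.7, 58.8 and 56.8 FPKM in WT. S100a16+/- replicate 3 stood apart. CPM here are counts scaled to the library total after edgeR's TMM adjustment. Across tested genes, log2(CPM + 1) of S100a16+/- replicate 3 correlated with that of S100a16+/- replicates 1 and 2 at 0.943 and 0.942. The other within-group pairs lay between 0.988 and 0.990. S100a16+/- replicate 3 alone held Xist, at 32.2 FPKM against at most 0.0323 FPKM in any other library. It nearly lacked the Y-linked Ddx3y, at 0.0102 FPKM against at least 12.1 FPKM. These sex-linked genes had a female pattern in S100a16+/- replicate 3 and a male pattern in every other library. Sex thus differed within the S100a16+/- group. Calls that change without S100a16+/- replicate 3 are therefore given beside the results. The stellate markers Lrat and Reln stayed under 1 FPKM in every library (at most 0.0517 and 0.531 FPKM), and transcripts of other liver cells were abundant. In this bulk RNA, fewer cells of a type and less RNA per cell cannot be told apart.

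RefSeq promoter windows (GRCm38.p6, 300 bases around a start) were found for 7 of the 10 genes. The stretch that holds the class II control boxes is shown for 4 of them because Ciita acts through these boxes. Each is read on the gene's own strand towards the start. Capitals mark the letters CNNGNAAC (X box), TGATTGG (Y box) and, in H2-Aa, TGACGTCA, which the CREB family binds. H2-Aa lies on the minus strand at chr17:34287865-34287909, H2-Eb1 on the plus strand at chr17:34305771-34305814, H2-Ob on the plus strand at chr17:34238813-34238854 and H2-DMb2 on the plus strand at chr17:34145120-34145165.
H2-Aa: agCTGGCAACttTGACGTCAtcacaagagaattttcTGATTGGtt
H2-Eb1: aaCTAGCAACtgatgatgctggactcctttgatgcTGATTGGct
H2-Ob: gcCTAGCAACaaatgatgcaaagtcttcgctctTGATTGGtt
H2-DMb2: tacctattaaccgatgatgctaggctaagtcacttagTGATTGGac

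The Y letters occurred on the gene's strand in the windows of 6 genes, H2-Aa, H2-Eb1, H2-DMb1, H2-DMb2, H2-Oa and H2-Ob, and in neither of the 2 windows of H2-DMa. In 5 of the 6 the X letters stood upstream, with 23 to 26 bases between the boxes, and H2-DMb2 was the exception. The boxes of H2-DMb1 and H2-Oa fall on annotated exons and are not printed. Over all 32851 mouse windows, the Y letters occurred on either strand in 7.82%, the X letters in 39.1%, TGACGTCA in 1.79%, and X followed by Y at 10 to 30 bases in 0.167%. The X letters were set after these promoters had been read, so the share describes how common the pattern is and tests nothing. Cd74, Ciita and H2-Ab1 had no window.

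Of the 10 genes, 8 reached the minimum of 1 FPKM in at least 3 libraries and entered the fit of 12766 genes. H2-Oa and H2-Ob did not. In edgeR's quasi-likelihood fit with Benjamini-Hochberg adjustment, 5 of the 8 were called lower in S100a16+/- at an adjusted p under 0.05 (Ciita, Cd74, H2-Aa, H2-Ab1 and H2-Eb1), beside 1.61% of all tested genes. None was called higher, beside 2.85% of all tested genes, and none was higher at an unadjusted p under 0.05 or by DESeq2 or limma. Every S100a16+/- value lay below every WT value for 6 of the 8, the 5 called genes and H2-DMb2, beside 18.9% of all tested genes. Since this contrast chose the genes, nothing is read from these shares. Without S100a16+/- replicate 3 the same 5 were called lower, beside 16.4% of all tested genes. Ciita and Cd74 alone kept the call without S100a16+/- replicate 2 and without WT replicate 1, 2 or 3, and without S100a16+/- replicate 1 the call of H2-Aa alone was lost. These calls are a description as well, since the same contrast chose the genes, and Ciita entered the fit through WT alone.

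**Figure D1:**
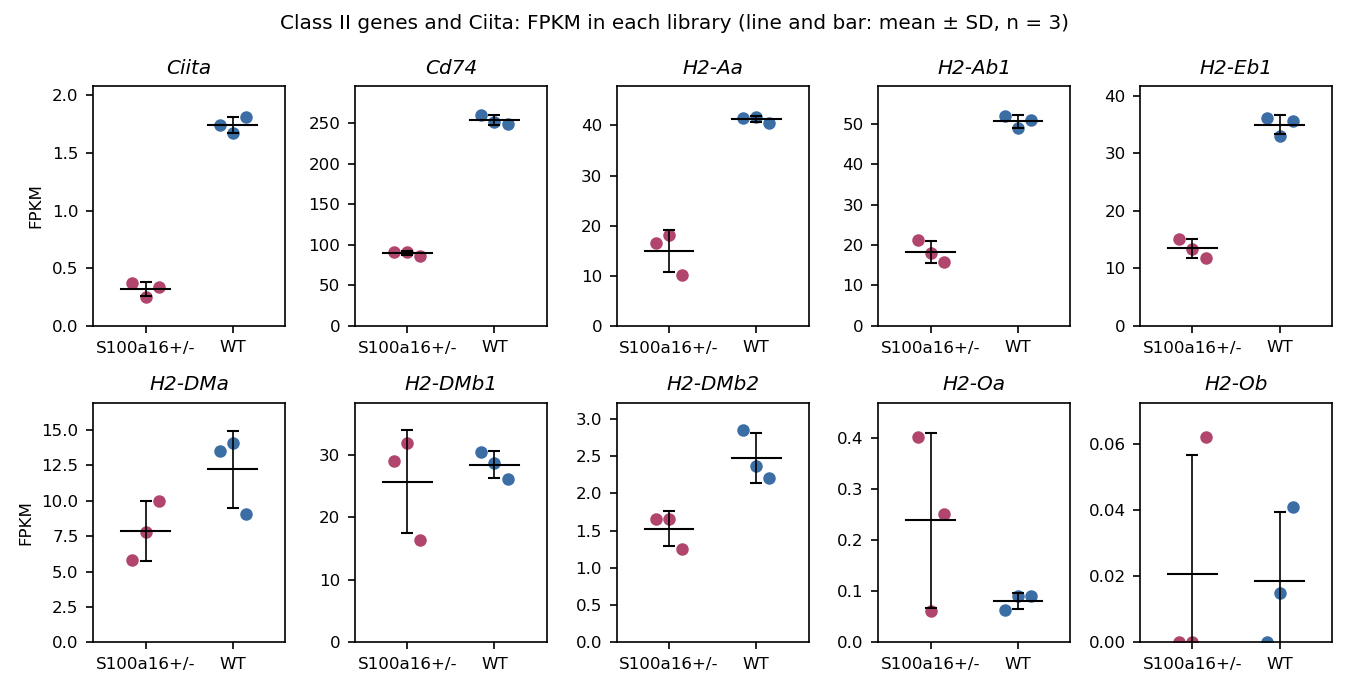
FPKM of the 10 genes in each library, S100a16+/- left of WT, with 1 point per library and a line and bar for the mean ± SD (n = 3 each). For Ciita, Cd74, H2-Aa, H2-Ab1, H2-Eb1 and H2-DMb2 the S100a16+/- points lie below all WT points, and for H2-DMa, H2-DMb1, H2-Oa and H2-Ob the groups overlap.

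Ciita had the largest log2 change of the tested class II genes in the edgeR fit. The gene (ENSMUSG00000022504, chromosome 16, 10480059 to 10526426, plus strand) had 0.371, 0.252 and 0.339 FPKM in S100a16+/- replicates 1, 2 and 3, against 1.74, 1.68 and 1.81 FPKM in WT replicates 1, 2 and 3. The groups were far apart, and within each group the libraries lay close together. The mean was 0.321 ± 0.0615 FPKM in S100a16+/- and 1.74 ± 0.0683 FPKM in WT (SD, n = 3 each), so S100a16+/- stood at 18.4% of WT. Its log2 change was -2.38 (SE 0.17). These levels rest on few counts for a coactivator transcript, 281, 189 and 224 in S100a16+/- and 1213, 1358 and 1396 in WT. The gene overlaps Dexi on the other strand, which had 621, 535 and 523 counts in S100a16+/- and 627, 625 and 607 in WT. The sources used here do not give whether strand was used in counting, so reads of this pair could have been mixed. Ciita was below 1 FPKM in all S100a16+/- libraries and entered the fit through WT alone, so a gene at its S100a16+/- level had to be higher in WT to be tested.

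Cd74, the invariant chain that guards the empty groove and also serves as a receptor for the cytokine MIF, was the most abundant class II transcript in both genotypes. It (ENSMUSG00000024610, chromosome 18, 60803848 to 60812646, plus strand) had 90.7, 91.8 and 86.8 FPKM in S100a16+/- replicates 1, 2 and 3, against 260, 252 and 249 FPKM in WT. The 3 S100a16+/- libraries lay within a few FPKM of each other, S100a16+/- replicate 3 included. S100a16+/- averaged 89.7 ± 2.59 FPKM and WT 254 ± 5.75 FPKM (SD, n = 3 each), or 35.3% of WT, and the log2 change was -1.45 (SE 0.07). Counts of 9997 to 11980 in S100a16+/- and 32002 to 35889 in WT lie behind these values, and across 15 other fits the log2 change stayed between -1.51 and -1.41.

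The 3 classical chains stood at similar fractions of WT. H2-Aa, the alpha chain of I-A (ENSMUSG00000036594, chromosome 17, 34282744 to 34287823, minus strand), had 16.6, 18.2 and 10.1 FPKM in S100a16+/-, against 41.6, 41.7 and 40.5 FPKM in WT. H2-Ab1, the beta chain of I-A (ENSMUSG00000073421, 34257689 to 34269419, plus strand), had 21.2, 18.0 and 15.8 FPKM in S100a16+/-, against 51.8, 48.8 and 51.0 FPKM in WT. H2-Eb1, the beta chain of I-E (ENSMUSG00000060586, 34305867 to 34316674, plus strand), had 15.2, 13.4 and 11.8 FPKM in S100a16+/-, against 36.2, 33.0 and 35.7 FPKM in WT. No library of one genotype reached the range of the other for any of the 3 chains, and S100a16+/- replicate 3 was the lowest library each time. The S100a16+/- means were 36.3% of WT for H2-Aa, 36.3% for H2-Ab1 and 38.5% for H2-Eb1. In the fit the log2 changes were -1.41 for H2-Aa (SE 0.23), -1.41 for H2-Ab1 (SE 0.12) and -1.32 for H2-Eb1 (SE 0.12). The wider error of H2-Aa comes with its spread in S100a16+/-, where the SD was 4.27 FPKM, against 0.644 FPKM in WT. The partner chain of H2-Eb1, H2-Ea, and the further locus H2-Eb2 had 0 counts in all 6 libraries. C57BL/6 mice are known to lack H2-Ea expression.

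The DM chaperone genes differed less. H2-DMa, the DM alpha chain (ENSMUSG00000037649, 34119541 to 34139101, plus strand), had 5.78, 7.82 and 10.004 FPKM in S100a16+/-, against 13.5, 14.0 and 9.09 FPKM in WT. The groups overlapped, because S100a16+/- replicate 3 exceeded WT replicate 3. Its log2 change was -0.59 (SE 0.25) and was not called. The annotated gene overlaps Brd2 on the other strand, which is the larger by count with 10432 to 12112 counts in S100a16+/- and 11287 to 13905 in WT, so its level is uncertain if strand was not used.

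H2-DMb1, the main DM beta chain (ENSMUSG00000079547, 34153072 to 34160230, plus strand), had 28.9, 31.8 and 16.3 FPKM in S100a16+/-, against 30.5, 28.6 and 26.1 FPKM in WT. Replicates 1 and 2 of S100a16+/- were within or just above the WT range and replicate 3 was below it. The mean was 25.7 ± 8.26 FPKM in S100a16+/- and 28.4 ± 2.17 FPKM in WT (SD, n = 3 each), and the log2 change was -0.09 (SE 0.26). The sign turned without S100a16+/- replicate 3, where the value was 0.16. In S100a16+/- replicates 1 and 2 H2-DMb1 thus stood at the WT level, where the classical chains stood below it. Its promoter window holds both the X and the Y letters.

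H2-DMb2, the second DM beta chain (ENSMUSG00000037548, 34143307 to 34151555, plus strand), had 1.66, 1.65 and 1.25 FPKM in S100a16+/-, against 2.85, 2.36 and 2.21 FPKM in WT. The groups did not overlap, but the log2 change of -0.64 (SE 0.19) was not called. Its longest coding transcript is 94.6% identical to that of H2-DMb1 over 1219 aligned bases, with an unbroken identical run of 221 bases. Reads of the rarer H2-DMb2 could in part be reads of H2-DMb1, and the split between both genes is uncertain.

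The DO genes, known from B cells and thymus as brakes on DM, were close to the detection limit. H2-Oa (ENSMUSG00000024334, 34092340 to 34095234, plus strand) had 46, 8 and 26 counts in S100a16+/-, against 9, 12 and 11 counts in WT. The groups overlapped, and the highest level in any library was 0.402 FPKM, in S100a16+/- replicate 1. H2-Ob (ENSMUSG00000041538, 34238903 to 34249309, plus strand) had 0, 0 and 24 counts in S100a16+/-, against 0, 7 and 19 counts in WT. No difference between the genotypes was detectable for H2-Ob at this depth.

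**Figure D2:**
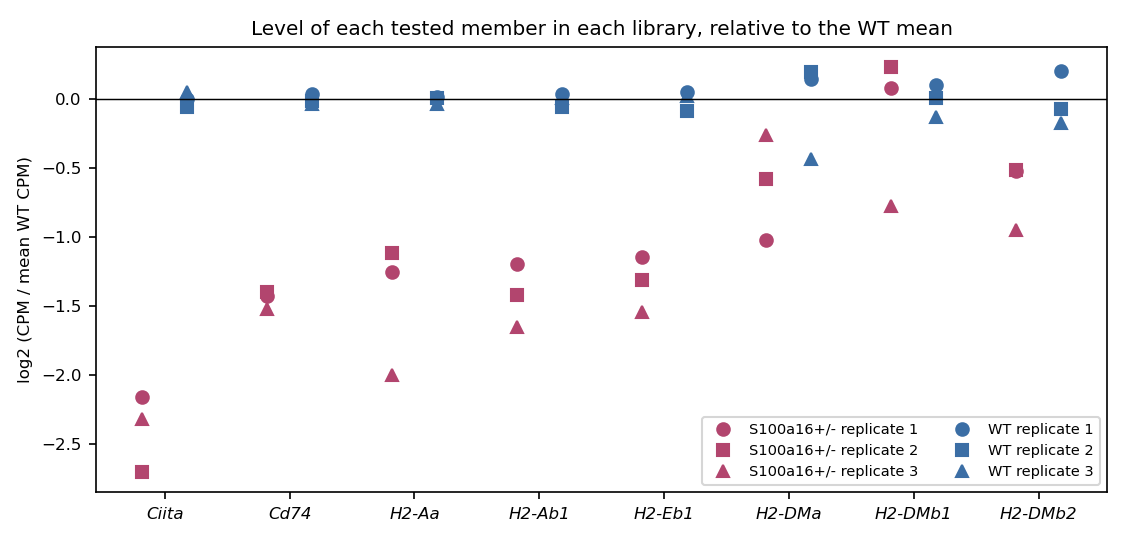
Level of the 8 tested class II genes in each library as log2 of CPM over the mean WT CPM, S100a16+/- libraries left of WT libraries, with 1 symbol per replicate number. Ciita lies lowest in all 3 S100a16+/- libraries (-2.16, -2.71 and -2.32), Cd74 and the classical chains lie between -1.11 and -2.001, and H2-DMb1 lies at 0.08, 0.23 and -0.77.

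Taken library by library, the median log2 ratio of the 8 tested genes to the WT mean was -1.17, -1.21 and -1.53 in S100a16+/- replicates 1, 2 and 3, and 0.05, -0.03 and -0.03 in WT replicates 1, 2 and 3. The summed FPKM of the 10 genes was 181, 183 and 153 in S100a16+/-, against 439, 422 and 416 in WT. S100a16+/- replicate 3 therefore lay below S100a16+/- replicates 1 and 2 on both measures, although for S100a16 it lay closest to WT. Without it the log2 changes were -2.41 for Ciita, -1.41 for Cd74, -1.18 for H2-Aa, -1.30 for H2-Ab1, -1.22 for H2-Eb1, -0.78 for H2-DMa, 0.16 for H2-DMb1 and -0.51 for H2-DMb2. The order of the genes by size of change was thus led by Ciita and Cd74 with or without that library.

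Ratios within a library, which do not depend on library scaling, were alike in both genotypes for some pairs and apart for others. H2-Eb1 over H2-Ab1 in FPKM was 0.717, 0.747 and 0.746 in S100a16+/-, against 0.698, 0.677 and 0.701 in WT. Cd74 over H2-Ab1 was 4.28, 5.10 and 5.51 in S100a16+/-, against 5.03, 5.16 and 4.90 in WT. The first pair differed by a small margin without overlap, and the second overlapped. Ciita over H2-Ab1 was lower in each S100a16+/- library, at 0.0175, 0.0140 and 0.0215, against 0.0335, 0.0343 and 0.0356 in WT. H2-DMb1 over H2-Ab1 ran the other way, at 1.36, 1.77 and 1.03 in S100a16+/-, against 0.588, 0.586 and 0.513 in WT. Relative to the I-A beta chain, the transcripts of the chaperone beta chain were thus higher in every S100a16+/- library and those of the coactivator lower. H2-Ab1 was itself chosen for its difference in these libraries. A gene that stays at its WT level stands higher over it in S100a16+/-, so these ratios are a description and not a separate result.

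The order of levels also differed between genotypes. In WT the FPKM order was Cd74, H2-Ab1, H2-Aa, H2-Eb1, H2-DMb1, H2-DMa, H2-DMb2 and Ciita, and no neighbouring pair overlapped between libraries. In S100a16+/- H2-DMb1 stood second, but its range overlapped those of H2-Ab1 and H2-Aa, and the range of H2-Aa overlapped that of H2-Eb1 as well. The order depends on the length used. The FPKM of H2-Aa implies a length of 4.22 kb, near the 3.80 kb of all its GENCODE M21 exons merged, while its longest coding transcript has 1.13 kb. Per kilobase of longest coding transcript, H2-Aa had a mean of 57.6 CPM in S100a16+/- and 153 CPM in WT. On the same scale H2-Ab1 had 44.3 CPM in S100a16+/- and 118 CPM in WT. The alpha chain thus ranked above the beta chain on that scale and below it in FPKM, while the comparison between genotypes does not depend on length.

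In the table, 8 of the 10 genes lie on chromosome 17 between 34092340 and 34316674, a stretch of 224 kb that the table fills with 20 genes. The 7 genes with unchanged coordinates in GENCODE M21 (GRCm38) are among these 8. Of the 12 other genes of the stretch, 5 were tested. Tap2, a subunit of the peptide transporter of the class I pathway, rose in S100a16+/- with 14.2 ± 0.833 FPKM, against 10.1 ± 0.615 FPKM in WT (SD, n = 3 each), a log2 change of 0.55 (SE 0.08, adjusted p by edgeR = 0.0246). The call of Tap2 was lost when any library other than S100a16+/- replicate 3 was left out (adjusted p by edgeR from 0.0679 to 0.129). Tap1, its other subunit, had a log2 change of 0.51 (SE 0.11, adjusted p by edgeR = 0.0617). The immunoproteasome genes Psmb8 (0.51, SE 0.11, adjusted p by edgeR = 0.0615) and Psmb9 (0.50, SE 0.15, adjusted p by edgeR = 0.134) were not called. These 3 genes rose as well without S100a16+/- replicate 3, with log2 changes of 0.41 for Tap1, 0.45 for Psmb8 and 0.57 for Psmb9 (adjusted p by edgeR = 0.00864, 0.0243 and 0.0390), beside 15.8% of all tested genes. For the 4 genes every S100a16+/- library lay above every WT library, beside 12.5% of all tested genes, and the bromodomain gene Brd2 had a log2 change of 0.00 (SE 0.06, adjusted p by edgeR = 0.996). The class I pathway genes that sit between H2-DMb1 and H2-Ob thus had positive values, whereas the tested class II genes on either side had values below 0, except for H2-DMb1 without S100a16+/- replicate 3.

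**Figure D3:**
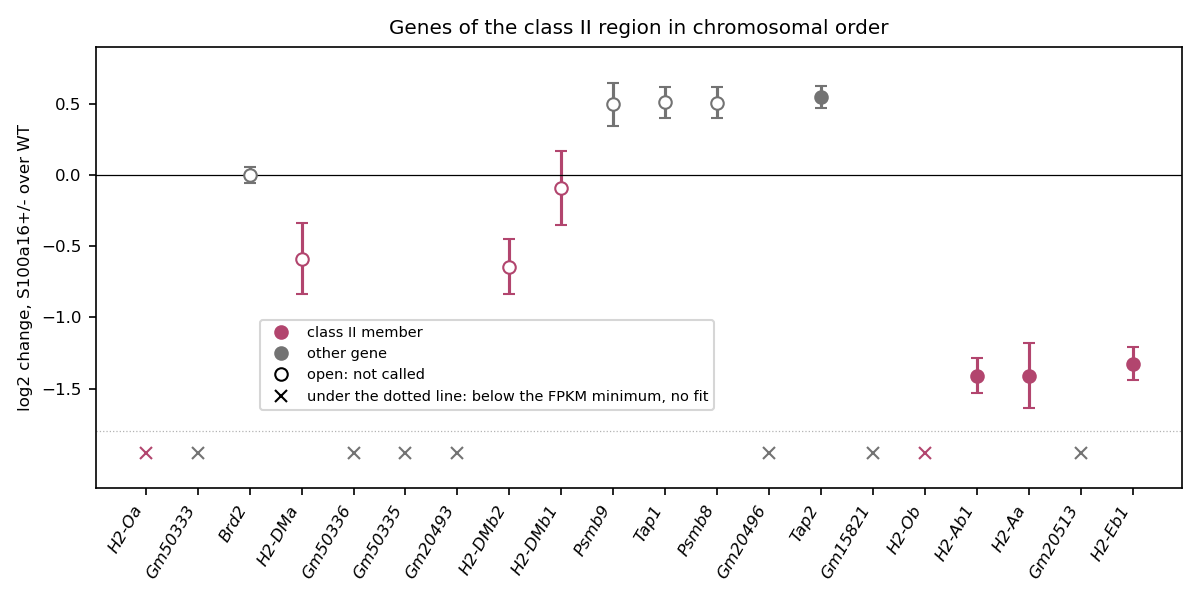
Log2 change of the 20 genes of the chromosome 17 class II stretch in chromosomal order, S100a16+/- over WT, with bars for the SE. H2-Ab1, H2-Aa and H2-Eb1 at one end lie near -1.4, Psmb9, Tap1, Psmb8 and Tap2 lie near 0.5, filled points were called at an adjusted p under 0.05, and crosses under the dotted line mark genes below the FPKM minimum, which have no value.

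Genes that work with the class II set were looked up in textbook lists of 51 genes, of which 43 were tested. With edgeR, 3 rose (beside 2.85% of all tested genes) and 0 fell (beside 1.61%). At an unadjusted p under 0.05, 12 were higher and 4 lower, limma on log2(FPKM + 1) called 3 higher and 0 lower, and DESeq2 called 10 higher and 3 lower. Over all 12766 tested genes, 1589 were higher and 1218 lower at an unadjusted p under 0.05. Limma called 260 of all tested genes higher and 247 lower, and DESeq2 called 1125 higher and 763 lower. The same totals apply to each partner and marker list below. The median log2 change of the 43 was 0.17, against 0.00 for all tested genes. Without S100a16+/- replicate 3, 16 rose and 4 fell, beside 15.8% and 16.4% of all tested genes.

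All 3 risen genes are among the 9 of endosomal processing, a list mostly of proteases that cut antigen and the invariant chain, whose median log2 change was 0.48. The summed FPKM of the 9 was 177%, 185% and 139% of the WT mean in S100a16+/- replicates 1, 2 and 3, and that of the macrophage and Kupffer cell markers was 178%, 191% and 128%. The part of these cells in the rise was not tested. Ctsd, the aspartic protease cathepsin D, had 4884 ± 859 FPKM in S100a16+/- and 2469 ± 91.4 FPKM in WT (SD, n = 3 each), a log2 change of 1.04 (SE 0.17, adjusted p by edgeR = 0.0376). Ctsb, cathepsin B, had 1323 ± 7.63 FPKM in S100a16+/- and 920 ± 32.4 FPKM in WT (SD, n = 3 each), a log2 change of 0.58 (SE 0.10, adjusted p by edgeR = 0.0402). Sppl2a, which cleaves the membrane stub of Cd74, had 16.6 ± 0.635 FPKM in S100a16+/- and 11.8 ± 0.431 FPKM in WT (SD, n = 3 each), a log2 change of 0.54 (SE 0.06, adjusted p by edgeR = 0.0189). In all 3, every S100a16+/- library lay above every WT library, beside 12.5% of all tested genes, though these 3 were picked as called higher. The calls were lost when any library other than S100a16+/- replicate 3 was left out, with adjusted p by edgeR from 0.0765 to 0.217 over the 3 genes. Of the 9 genes, 8 rose without S100a16+/- replicate 3, beside 15.8% of all tested genes.

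None of the 10 tested factors that Ciita docks on or recruits passed edgeR's test (1 higher and 1 lower at an unadjusted p under 0.05, the same by DESeq2 with adjustment, 0 by limma). Ep300, an acetyltransferase, had a log2 change of 0.25 (adjusted p by edgeR = 0.0687). It was the 1 gene of this list called without S100a16+/- replicate 3 (0.26, adjusted p by edgeR = 0.00653), beside 15.8% of all tested genes called higher. Rfx5, which binds the X box, had 2.36, 2.90 and 2.96 FPKM in S100a16+/-, against 3.38, 3.74 and 4.07 FPKM in WT, a log2 change of -0.39 (adjusted p by edgeR = 0.144). Of 6 tested regulators of Ciita itself, 0 passed (2 higher and 1 lower at an unadjusted p under 0.05 and by DESeq2, 0 by limma), with log2 changes of 0.30 for Irf2 and 0.63 for Spi1 (adjusted p by edgeR = 0.0834 and 0.0913). These 2 rose without S100a16+/- replicate 3, by 0.26 for Irf2 and 0.79 for Spi1 on the log2 scale (adjusted p by edgeR = 0.0307 and 0.000122), and 0 fell (2 lower at an unadjusted p under 0.05). In that fit 15.8% of all tested genes were higher and 16.4% lower, and 2781 of 12766 were lower at an unadjusted p under 0.05. The macrophage and dendritic cell regulator Irf8, picked after its values were seen, had 12.4, 6.65 and 9.29 FPKM in S100a16+/-, against 15.9, 15.5 and 14.8 FPKM in WT (log2 change -0.66, adjusted p by edgeR = 0.157).

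The interferon-gamma pathway that induces Ciita had 0 of 7 tested genes past edgeR's test (1 higher and 1 lower at an unadjusted p under 0.05, 1 lower by DESeq2, 0 by limma). Its receptor chain Ifngr1 had 16.1, 17.5 and 23.1 FPKM in S100a16+/-, against 33.5, 27.9 and 32.7 FPKM in WT. The groups did not overlap, beside 18.9% of all tested genes with every S100a16+/- value below every WT value. The log2 change of Ifngr1 was -0.68 (SE 0.15, adjusted p by edgeR = 0.0668). Without S100a16+/- replicate 3 it fell by 0.84 on the log2 scale (adjusted p by edgeR = 0.00237). Jak2, the kinase on that receptor, had a log2 change of 0.26 (adjusted p by edgeR = 0.209). Without S100a16+/- replicate 3 the list had 1 gene higher, Jak2 (0.34, adjusted p by edgeR = 0.0220), and 2 lower, Ifngr1 and the feedback inhibitor Socs3 (-0.48, adjusted p by edgeR = 0.00511). Of all tested genes, 15.8% were higher and 16.4% lower in that fit. The ligand gene Ifng had a count in no library but S100a16+/- replicate 3, where it stood at 0.0407 FPKM.

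Class II turnover (3 tested), costimulation and checkpoint ligands (5 tested) and MIF and its Cd74 partners (3 tested) had 0 called genes by edgeR. At an unadjusted p under 0.05 these lists held 0 higher and 1 lower, 2 higher and 0 lower, and 0 of either direction, DESeq2 called 2 higher costimulation genes and none in the other lists, and limma called none. Cd83, which keeps class II on the surface, had a log2 change of -0.46 (adjusted p by edgeR = 0.157), and Marchf1, the ligase that removes it, of 0.26 (adjusted p by edgeR = 0.413). Cd40 and Cd274, which encode the receptor for CD40 ligand and the inhibitory ligand PD-L1, had log2 changes of 1.05 and 0.86 (adjusted p by edgeR = 0.0540 and 0.0745). Cd86, the ligand of CD28, was picked after its values were seen and had 6.12, 7.02 and 15.5 FPKM in S100a16+/-, against 18.9, 17.8 and 16.7 FPKM in WT (log2 change -0.85, adjusted p by edgeR = 0.233). Every S100a16+/- library lay below every WT library for Cd86, beside 18.9% of all tested genes. Without S100a16+/- replicate 3 the costimulation list had 2 genes higher, Cd40 and Cd274 (1.11 and 1.05, adjusted p by edgeR = 0.0153 and 0.000251), and 2 lower, Cd86 and Icosl (-1.37 and -0.48, adjusted p by edgeR = 0.000372 and 0.0146). That fit called 15.8% of all tested genes higher and 16.4% lower. The Cd74 ligands Mif and Ddt had 0.09 and 0.22 (adjusted p by edgeR = 0.664 and 0.263). Mif and Cd44 rose without S100a16+/- replicate 3 (0.18 and 0.57, adjusted p by edgeR = 0.0479 and 0.00222), beside 15.8% of all tested genes. Of the 3, 0 fell (0 also at an unadjusted p under 0.05), beside 16.4% of all tested genes.

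**Figure D4:**
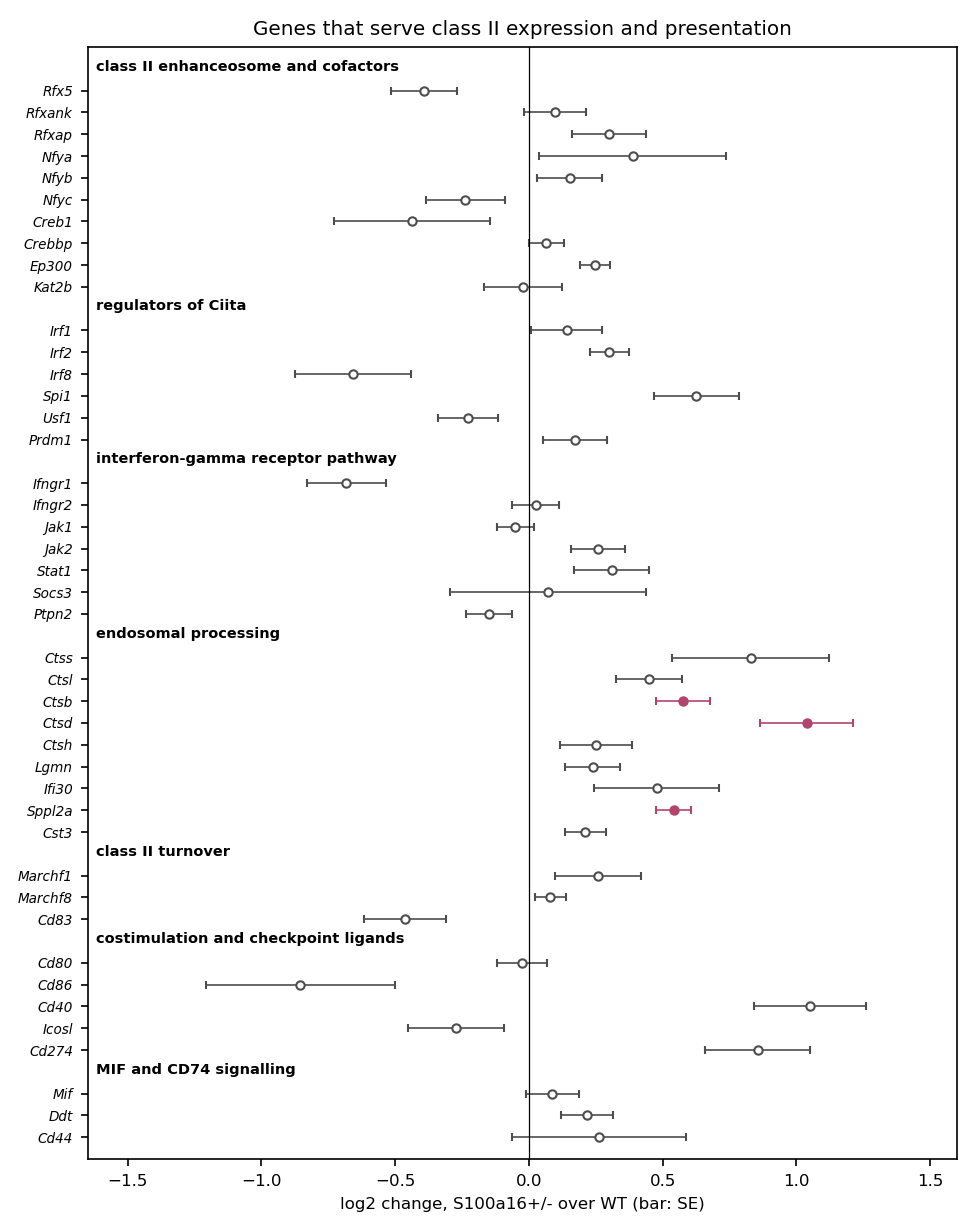
Log2 change, S100a16+/- over WT, of the 43 tested genes that serve class II expression and presentation, grouped by role, with bars for the SE. The 3 filled points, Ctsb (0.58), Ctsd (1.04) and Sppl2a (0.54), are the genes called by edgeR, and the other 40 points are open.

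Markers of the cells that could carry class II were compared with it. Of 10 macrophage and Kupffer cell markers, 3 rose by edgeR (Marco, Cd5l and Adgre1), beside 2.85% of all tested genes, and 0 fell (0 also at an unadjusted p under 0.05, by DESeq2 and by limma), and their summed FPKM was 178%, 191% and 128% of the WT mean in S100a16+/- replicates 1, 2 and 3. These 3 calls were lost when any library other than S100a16+/- replicate 3 was left out, and without S100a16+/- replicate 3, 6 rose and 2 fell, beside 15.8% and 16.4% of all tested genes. Lyz2 contributed most to the summed FPKM, at 207%, 225% and 122% of its WT mean. Timd4 ran the other way, with 28.6, 31.8 and 18.0 FPKM in S100a16+/-, against 36.6, 39.1 and 37.3 FPKM in WT. C1qa stood at 69.0%, 72.8% and 95.2% of its WT mean, and Clec4f at 193%, 209% and 43.1%. None of these was called by edgeR. Csf1r, the macrophage colony-stimulating factor receptor, had 242, 251 and 258 FPKM in S100a16+/-, against 241, 252 and 237 FPKM in WT. Cd74 over Csf1r was 0.375, 0.366 and 0.337 in S100a16+/-, against 1.08, 0.999 and 1.05 in WT. Over the Kupffer cell gene Vsig4 the Cd74 ratio was 0.337, 0.315 and 0.301 in S100a16+/-, against 0.917, 0.835 and 0.879 in WT. Cd74 was thus lower relative to both macrophage genes in every S100a16+/- library. Cd74 was chosen for its difference in these libraries, and Csf1r and Vsig4, named after their values were seen, overlapped between the groups. These ratios therefore restate the difference of Cd74, and the part of macrophages in it was not tested.

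The sum of the sinusoidal endothelial markers, to which Cdh5 contributed most, stood below WT beside class II in S100a16+/- replicates 1 and 2, but not in S100a16+/- replicate 3. The summed FPKM was 550, 522 and 1650 in S100a16+/-, against 1404, 1260 and 1304 in WT, or 41.6%, 39.5% and 125% of the WT mean, while the class II sum was 42.5%, 43.0% and 35.9%. The class II sum was thus lowest in S100a16+/- replicate 3, whose endothelial sum was above every WT library. Of the 8 listed markers Clec4g, which reached 1 FPKM in too few libraries for the fit, ran the other way with 3.24, 3.14 and 0.468 FPKM in S100a16+/-, against 0.995, 0.963 and 0.576 FPKM in WT. The other markers were divided in S100a16+/- replicate 3. Stab1, Cdh5, Pecam1, Kdr and Tek lay above every WT library there, and Stab2 lay within the WT range. Lyve1 lay below every WT library, at 106 FPKM in S100a16+/- replicate 3 against 126, 117 and 123 FPKM in WT. Of the 7 tested endothelial markers, 0 were called by edgeR, DESeq2 or limma and 0 had an unadjusted p under 0.05 by edgeR, whereas all 7 fell without S100a16+/- replicate 3, beside 16.4% of all tested genes.

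Among dendritic cell markers 0 of 4 tested were called by edgeR (2 higher and 1 lower at an unadjusted p under 0.05, 1 higher and 1 lower by DESeq2, 0 by limma), and their sum was 113%, 109% and 69.1% of the WT mean. Of all 12766 tested genes, 1589 were higher and 1218 lower at an unadjusted p under 0.05, and DESeq2 called 1125 higher and 763 lower. Cd209a was at 0 in every library, and Flt3, Xcr1, Ccr7 and Siglech were at most 0.0942 FPKM. Fscn1, the most abundant of the list, had 138, 130 and 110 FPKM in S100a16+/-, against 160, 167 and 170 FPKM in WT. Itgax, the next in abundance, had 59.2, 60.7 and 6.82 FPKM in S100a16+/-, against 8.41, 9.72 and 8.17 FPKM in WT, and Clec9a had 1.93, 2.19 and 3.06 FPKM in S100a16+/-, against 1.88, 1.56 and 1.70 FPKM in WT. The list thus held genes on both sides of WT. B cell markers had 0 of 3 tested called by edgeR (1 higher at an unadjusted p under 0.05 and by DESeq2, 0 by limma) and a sum of 104%, 119% and 166% of the WT mean. The B cell receptor gene Cd79a was at most 0.163 FPKM, while its partner Cd79b had 0.519, 0.349 and 2.58 FPKM in S100a16+/-, against 2.31, 2.64 and 2.78 FPKM in WT. Cd22, the most abundant of the list, had 12.1, 14.3 and 12.2 FPKM in S100a16+/-, against 8.43, 11.2 and 9.47 FPKM in WT, and Ighm reached 7.52 FPKM in S100a16+/- replicate 3.

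Of the remaining marker sums, only that of T and NK cells lay below WT in every S100a16+/- library, as class II did. Unlike class II, it was closest to WT in S100a16+/- replicate 3. In S100a16+/- replicates 1, 2 and 3 the stellate sum was 186%, 181% and 50.1% of the WT mean, the myofibroblast sum 109%, 106% and 15.9%, the hepatocyte sum 9.52%, 9.85% and 546% and the cholangiocyte sum 112%, 99.7% and 77.0%. Des contributed most to the stellate sum in S100a16+/- replicates 1 and 2, at 294% and 300% of its WT mean. In both replicates Pdgfrb, Reln and Colec11 lay below their WT mean and the other stellate markers above it. Of the myofibroblast markers, Col1a1, Col1a2, Col3a1 and Postn lay below it there, and Acta2, Tagln, Lox and Timp1 above. Monocyte and neutrophil markers summed to 155%, 171% and 157%. Of their 2 tested genes, edgeR called S100a8 higher (log2 change 3.28, adjusted p by edgeR = 0.0386), beside 2.85% of all tested genes. It had 12.4, 15.0 and 6.58 FPKM in S100a16+/-, against 0.975, 2.01 and 0.572 FPKM in WT. That call was lost without any library other than S100a16+/- replicate 3. Csf3r, the most abundant of the list, had 16.1, 16.5 and 21.9 FPKM in S100a16+/-, against 17.4, 17.8 and 16.1 FPKM in WT, and was not called. Of the 8 monocyte and neutrophil markers, 6 stayed under 1 FPKM in every library, among them S100a9 and Ly6g with 0 counts. T and NK cell markers summed to 21.3%, 25.0% and 87.9%, mostly Cd4, with 1.20, 1.29 and 6.51 FPKM in S100a16+/-, against 6.66, 7.01 and 6.56 FPKM in WT. The other 7 listed genes stayed under 1 FPKM. The part of the cell mix in the class II levels was not tested.

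**Figure D5:**
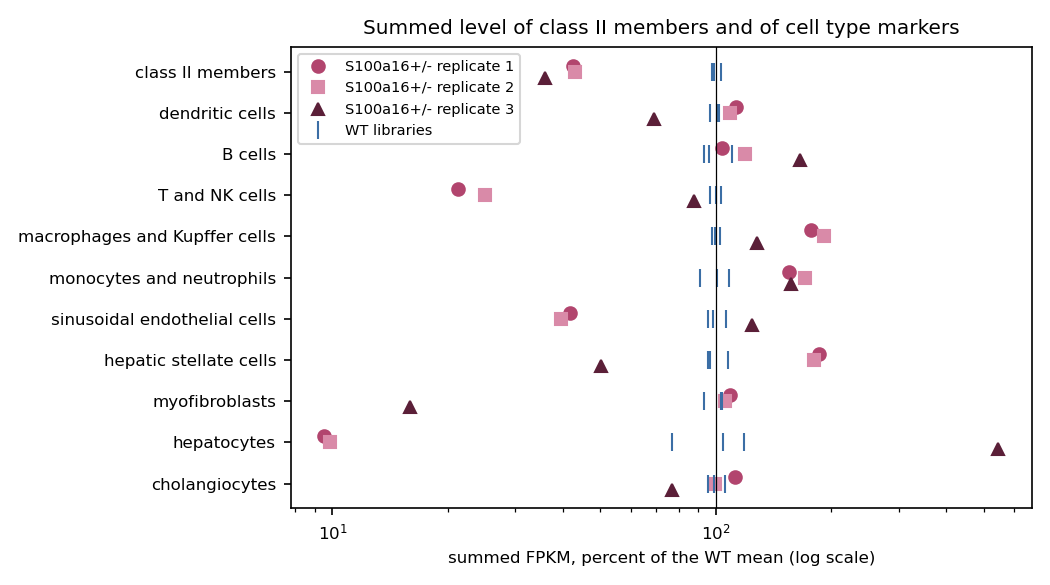
Summed FPKM of the 10 class II genes and of each cell type's markers in each library, as percent of the WT mean on a log axis, with S100a16+/- libraries as circles, squares and triangles and WT libraries as ticks. The class II sum lies at 42.5%, 43.0% and 35.9% in S100a16+/- replicates 1, 2 and 3, whereas the endothelial, stellate, myofibroblast and hepatocyte sums put replicate 3 on the other side of WT or far from replicates 1 and 2.

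Among 7414 other tested genes with a mean of at least 5 FPKM, the 8 whose profile over the 6 libraries lay nearest to the class II median profile were Ccnb2, Kdm6b, Ear2, Nrep, Smpd3, Glul, Dusp5 and Cirbp. Their root mean square distance from it on the log2 scale was between 0.183 and 0.320. Ccnb2, a mitotic cyclin, had 6.10, 5.67 and 3.86 FPKM in S100a16+/-, against 11.0, 13.5 and 15.0 FPKM in WT. Kdm6b, a histone H3 lysine demethylase, had 3.51, 3.71 and 2.89 FPKM in S100a16+/-, against 7.01, 7.22 and 6.43 FPKM in WT. Glul, glutamine synthetase, had 81.6, 86.0 and 100.1 FPKM in S100a16+/-, against 190.2, 179 and 170 FPKM in WT. Each was chosen for its likeness to this contrast, so these levels are a description.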

How the data were processed

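Per the file headers, each gene and library has a count and an FPKM. The counts the authors deposited are whole numbers without scaling. The FPKM values the authors deposited are scaled to length and library total, and genes at 0 counts carried a placeholder FPKM of 0.0001, read here as 0. HISAT2 2.0.4, StringTie 1.3.4d, cutadapt 1.9, UMI-tools, edgeR and DESeq2 appear without roles in the submitters' processing notes. Not given in the sources used here are the genome build, the use of strand and the collapsing of molecular identifiers. Coordinates are the table's own.

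Genes with at least 1 FPKM in at least 3 libraries were fitted with edgeR 4.0.16 (R 4.3.3, TMM, quasi-likelihood, genotype only, Benjamini-Hochberg over all 12766 genes). Each SE is the log2 change's size over the square root of F. DESeq2 1.42.0, limma 3.58.1 on log2(FPKM + 1), other pseudocounts, filters, scalings and thresholds, a replicate block and each library left out were alternatives. The edgeR step was tested on simulated data.

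The members, the partner and marker lists and all rules were chosen with earlier results of these data known. Named were the members, S100a16, up to 4 called genes per partner list or else the 2 of smallest p, tested genes of the class II stretch, the 8 nearest profiles and the 2 most abundant markers per cell type, of which those a result turns on are printed. Irf8, Cd86, Icosl, Socs3, Cd44, Csf1r, Vsig4, Timd4, C1qa, Clec4f, Clec4g, Clec9a, Cd79b, further endothelial, stellate and myofibroblast markers, markers at or near 0, sex-linked genes and called markers were named after their values were seen. Totals of 61979103 to 76291481 counts per library set the precision of low genes, for which counts are printed.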

Additional observations from a re-analysis of the deposited data

How the results depend on the processing

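With the reported settings edgeR called 364 genes higher and 206 lower, 5 class II genes lower and 0 higher, and 3 partner genes higher and 0 lower. Without an FPKM filter 206 genes were higher and 116 lower, and with a mean of at least 5 FPKM 137 were lower. DESeq2 called 1125 higher and 763 lower, with 10 partner genes higher and 3 lower. At an adjusted p under 0.01 there were 43 higher and 15 lower and 0 partner genes higher, and at 0.1 there were 772 higher and 466 lower, with 8 partner genes higher and 1 lower. Leaving out 1 library gave 22 to 2022 genes higher, 10 to 2093 lower, 2 to 5 class II genes lower, 0 to 16 partner genes higher and 0 to 4 lower; the highest counts of genes and partners came without S100a16+/- replicate 3, and without any other library at most 57 genes were higher, at most 23 lower and 0 partner genes called. In the other fits apart from the replicate block, 4 to 6 class II genes were lower. DESeq2 added H2-DMb2, a mean of at least 5 FPKM removed Ciita from the fit, and a threshold of 0.01 dropped H2-Aa. The cause of the other shifts was not tested. Higher calls made up 63.9% of all calls, and 52.8% with library totals alone.

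With the replicate number as a block, 0 genes, 0 class II genes and 0 partner genes were called by edgeR, while at an unadjusted p under 0.05 the block fit had 1233 genes higher and 974 lower. Same-numbered libraries deviated with correlations of -0.16, 0.05 and -0.08, and 0 of 6 libraries correlated best with their own number, so the numbers were not taken as pairs.

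The log2 change of Ciita ran from -2.50 to -0.34, and its smallest size came with a pseudocount of 5 FPKM, which exceeds its level. H2-Aa ran from -1.58 to -1.18, H2-Ab1 from -1.53 to -1.26, H2-Eb1 from -1.42 to -1.12, H2-DMa from -0.78 to -0.41, H2-DMb2 from -0.72 to -0.20 and H2-DMb1 from -0.28 to 0.16. S100a16 had a log2 change of -1.35 (adjusted p by edgeR = 0.0313). Its call was lost without any library other than S100a16+/- replicate 3 (adjusted p by edgeR from 0.105 to 0.143). The same alternatives for S100a16, for genes of the class II stretch and for some markers were chosen after seeing the data. With 3 libraries per genotype, 1 of them apart from its group, a genotype difference and other differences between the cultures cannot be told apart. Genes at a few counts, such as H2-Oa and H2-Ob, are limited by counting error.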
